A study of Mus musculus with 12 samples.

Results

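The genes described here are 10 regulators of actin filament disassembly, taken by name from the 24343 genes measured: the cofilins Cfl1 and Cfl2 and their relative destrin (Dstn), the LIM kinases Limk1 and Limk2, the slingshot phosphatases Ssh1, Ssh2 and Ssh3, the phosphatase Pdxp (chronophin) and the cofilin cofactor Wdr1 (Aip1). All 10 were found in every library, and all 10 were abundant enough to be tested. The set was chosen by the level of Cfl2 in siNCOA4 against siControl, where it was among the genes that fell most, so that fall is given as a description with no test. The question asked of the other 9 genes, called the relatives here, was whether any of them was higher where Cfl2 was low.

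RNA was measured in HT22 cells, an immortalized mouse hippocampal neuronal line, in 4 groups of 3 biological replicates: siControl, siNCOA4, siControl+DFO and siNCOA4+DFO. The siControl cells received a negative control siRNA and the siNCOA4 cells an siRNA against Ncoa4, the receptor that takes the iron store ferritin to the lysosome. DFO (deferoxamine), an iron chelator, was given at 100 µM for 24 h to the groups that carry its name. A single Ncoa4 siRNA in a single cell line was used, so loss of Ncoa4 and any other action of that siRNA cannot be told apart. The label was checked first: Ncoa4 stood at 6.46, 6.19 and 6.02 FPKM (fragments per kilobase and per library size, a level per transcript length) in siControl and at 0.770, 0.952 and 0.891 FPKM in siNCOA4. With DFO it stood at 8.70, 8.31 and 7.52 FPKM in siControl+DFO and at 0.850, 1.29 and 1.57 FPKM in siNCOA4+DFO.

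Cofilins and destrin belong to the ADF/cofilin family, small proteins that bind ADP-actin in ageing filaments, sever them and speed their disassembly. They are switched off by phosphorylation of the serine encoded by codon 3, which LIM kinases add and slingshot phosphatases and chronophin remove, and Aip1 caps and dismantles cofilin-decorated filaments. In neurons this cycle shapes growth cones and dendritic spines; Cfl1 is the form of most non-muscle cells, Cfl2 is best known from muscle, and destrin is common in epithelium and nervous tissue. The first 30 coding bases of the 3 family members are shown because all switches in the set act on this site. They come from GENCODE transcripts on GRCm38, and the capitals mark codon 3, a serine codon in each.
Cfl1: atggccTCTggtgtggctgtctctgatggt
Cfl2: atggcaTCTggagttacagtgaatgatgaa
Dstn: atggccTCAggagttcaggttgcggatgaa
Over the whole coding sequence, 356 of 498 aligned positions were identical between Cfl1 and Cfl2 (71.5%), 344 of 500 between Cfl1 and Dstn (68.8%) and 334 of 500 between Cfl2 and Dstn (66.8%). The longest stretch shared by a pair of their transcripts was 20 bases, between Cfl1 and Dstn. The 3 genes lie on different chromosomes, Cfl1 at chr19:5490455-5495201 (plus strand), Cfl2 at chr12:54858809-54862877 (minus strand) and Dstn at chr2:143915320-143943324 (plus strand).

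Some of the values can hold reads of neighbours. Of the 75-base windows of Cfl1 exons, 12.9% also lie in another gene, mainly Snx32 on the opposite strand, and of those of Pdxp 43.0% also lie in Gm49510 on the same strand, so the levels of Pdxp are uncertain. The share was at most 0.963% in each of the other 8 genes. Relative depth, read from the size of single-read steps in the files, spanned 1.52-fold between the 12 libraries, and read totals are unknown. Set to 1 in siControl replicate 1, it was 1.255 and 1.170 in the other siControl libraries. In siNCOA4 it was 1.307, 1.263 and 1.410, above all siControl libraries. In the DFO pair the ranges overlapped. Genes of small RNAs took 40.3% to 44.3% of the summed FPKM in siControl and 38.3% to 42.9% in siNCOA4. They took 45.2% to 48.4% in siControl+DFO and 50.4% to 54.1% in siNCOA4+DFO, without overlap in the DFO pair. Of 12 neuronal markers 4 had a mean of at least 1 FPKM (Tubb3, Syn1, Dlg4 and Eno2), while Rbfox3, Map2 and Snap25 were near 0. All 4 fibroblast markers exceeded 1 FPKM, and their summed level was 1286 to 1580 FPKM in siControl, 727 to 930 FPKM in siNCOA4, 346 to 463 FPKM in siControl+DFO and 395 to 479 FPKM in siNCOA4+DFO. The summed neuronal markers were 28.4 to 33.4, 23.2 to 29.1, 44.3 to 50.6 and 35.7 to 40.5 FPKM in the same order. These markers did not move together. From siControl to siControl+DFO the mean of Eno2 went from 4.63 to 21.7 FPKM and that of Tubb3 from 7.77 to 12.5 FPKM. Dlg4 went from 13.3 to 7.68 FPKM and Syn1 from 5.52 to 5.32 FPKM. The part of these shifts in the results was not tested, and in bulk RNA fewer cells of a type and less RNA per cell cannot be told apart.

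In FPKM, which is per transcript length, the genes ran from among the most to among the least abundant. Averaged over the 12 libraries, Cfl1 was the most abundant at 438 FPKM, above 98.8% of the 11924 genes tested, followed by Dstn at 89.6 FPKM, Wdr1 at 56.8 FPKM, Cfl2 at 18.0 FPKM and Ssh2 at 15.4 FPKM. Limk2 (9.40 FPKM), Limk1 (6.93 FPKM), Ssh1 (6.56 FPKM) and Pdxp (3.17 FPKM) were lower, and Ssh3 was close to the filter at 0.635 FPKM, above 5.69% of the genes tested. Cfl2 lay above Ssh2 in all libraries without Ncoa4 siRNA and below it in all libraries with the siRNA. In siNCOA4 the mean of Cfl2 (6.54 FPKM) was also below those of Ssh1 (8.001 FPKM), Limk2 (7.81 FPKM) and Limk1 (6.69 FPKM). The Cfl2 libraries there (4.32 to 7.79 FPKM) overlapped those of Limk2 (7.02 to 8.64 FPKM) and Limk1 (5.69 to 7.996 FPKM). The order of Cfl2 against Limk2 and Limk1 was thus not resolved. The library ranges of Limk2, Limk1 and Ssh1 overlapped, so their order was not resolved.

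Cfl2 was low in both groups that received Ncoa4 siRNA. It stood at 25.4, 28.1 and 29.4 FPKM in siControl and at 7.79, 7.51 and 4.32 FPKM in siNCOA4, a difference of -2.11 on the log2(FPKM + 0.1) scale that chose the gene. With DFO it stood at 28.4, 26.4 and 24.8 FPKM in siControl+DFO and at 10.96, 12.1 and 11.2 FPKM in siNCOA4+DFO. No library with the siRNA reached the lowest library without it. The means of the DFO pair hold none of the libraries that chose the gene. There Cfl2 fell by 1.21 on the log2 scale (95% interval -1.60 to -0.82, limma, Benjamini-Hochberg adjusted p = 0.00126). The interval and p draw on a spread estimated from all 12 libraries, which include those that chose the gene. The call also held when the compared groups were fitted alone. The siControl+DFO and siControl libraries overlapped, with a log2 difference of -0.06, and siNCOA4+DFO lay above siNCOA4 by 0.84. These 2 values share libraries with the choice of Cfl2, which was picked for being low in siNCOA4, and are descriptions.

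**Figure D1:**
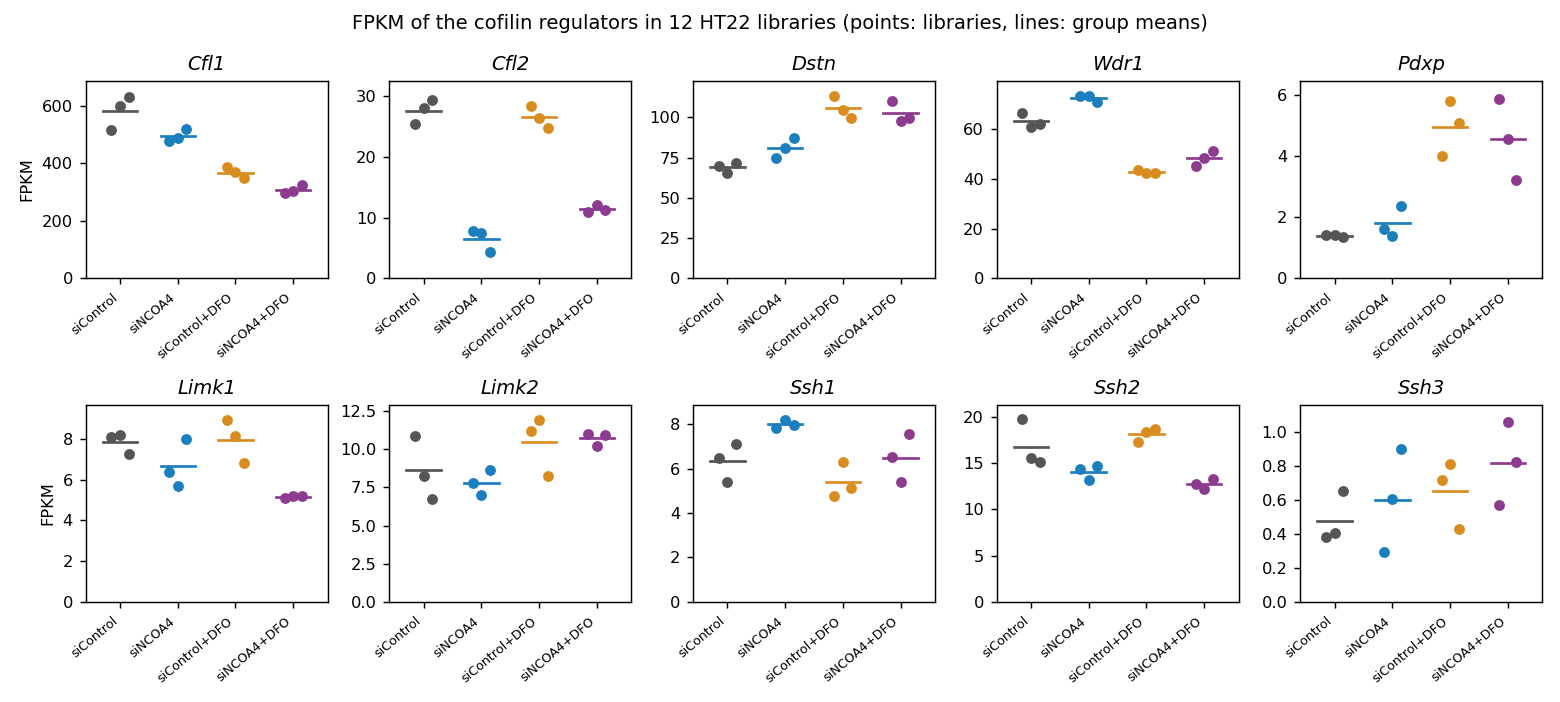
FPKM of each of the 10 genes (linear y axes starting at 0) in the 4 groups, with a point for each library and a line for the mean of 3. Cfl2 separates by siRNA, at 4.32 to 12.1 FPKM with Ncoa4 siRNA against 24.8 to 29.4 FPKM without, whereas Cfl1, Dstn, Wdr1 and Pdxp separate by DFO.

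No relative passed the test in siNCOA4 against siControl. Of the 9, 0 were higher and 0 lower at an adjusted p below 0.05 (limma, Benjamini-Hochberg over 11924 genes, of which 11.7% passed, 4.52% higher and 7.21% lower), and 4 had an unadjusted p below 0.05, against 26.2% of all genes. The median log2 difference of the 9 relatives was 0.20, beside 0.00478 over all genes tested. Groups did not overlap for Dstn, Ssh1 and Wdr1, all higher, and for Ssh2, lower, which is 4 of 9 where 32.6% of all genes had such groups. With 3 libraries against 3 no exact permutation p can fall below 0.1, so single values rest on the model across all genes.

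Cfl1, the abundant non-muscle cofilin, was no higher where Cfl2 was low. It stood at 517, 598 and 630 FPKM in siControl and at 478, 488 and 519 FPKM in siNCOA4, and these ranges overlapped. The log2 difference was -0.23 (95% interval -0.42 to -0.03, limma adjusted p = 0.125), an interval that lies below 0. Without siControl replicate 1, the lowest of its group, the difference was -0.31 and passed (adjusted p = 0.0387).

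Dstn, the ADF of the family, was a little higher with the siRNA alone. It stood at 70.0, 65.7 and 71.8 FPKM in siControl and at 74.7, 81.1 and 86.9 FPKM in siNCOA4, with no overlap. The log2 difference was 0.22 (95% interval 0.05 to 0.40, limma adjusted p = 0.0960) and did not pass. It passed where the libraries were quantile scaled (0.26, adjusted p = 0.0456) or rescaled to the sum outside small RNA genes (0.30, adjusted p = 0.0260). The latter scaling put the median of all genes itself at 0.08 in this comparison.

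Wdr1, whose product works with cofilin on filaments, showed the same small size of difference. It stood at 66.6, 60.9 and 62.2 FPKM in siControl and at 73.5, 73.3 and 71.2 FPKM in siNCOA4, with no overlap. The log2 difference was 0.20 (95% interval 0.06 to 0.34, limma adjusted p = 0.0696), and it passed under rescaling outside small RNA genes (0.27, adjusted p = 0.0457) and without siNCOA4+DFO replicate 3 (0.20, adjusted p = 0.0459).

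The kinases and phosphatases of codon 3 did not pass in either direction. The inactivating kinase Limk1 differed by -0.24 (95% interval -0.56 to 0.07) and Limk2 by -0.12 (95% interval -0.51 to 0.27) on the log2 scale. Among the activating phosphatases, Ssh1 stood at 6.47, 5.42 and 7.10 FPKM in siControl and at 7.84, 8.21 and 7.96 FPKM in siNCOA4 (log2 0.34, 95% interval -0.00 to 0.68, limma adjusted p = 0.192). Ssh2 differed the other way, from 19.7, 15.5 and 15.1 FPKM to 14.4, 13.2 and 14.7 FPKM (log2 -0.25, 95% interval -0.48 to -0.01, limma adjusted p = 0.163). Pdxp (0.31) and Ssh3 (0.20) had overlapping groups and intervals over 1 log2 unit wide, so for them these data resolve little.

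With DFO present, 3 of the 10 genes were lower with Ncoa4 siRNA and 0 were higher (limma, adjusted p below 0.05), in a comparison where 16.5% of all genes passed, 6.22% higher and 10.2% lower. They were Cfl2, as given, and the regulators Limk1 and Ssh2. Without Cfl2, which was picked for its fall with the same siRNA, 2 of the 9 relatives were lower and 0 higher. The median log2 difference was -0.10 for the 10 and -0.05 for the 9 relatives, beside -0.00618 over all genes tested. Of the 10, 5 had groups that did not overlap, Cfl2 among them, against 34.8% of all genes.

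Limk1 stood at 8.95, 8.16 and 6.83 FPKM in siControl+DFO and at 5.10, 5.22 and 5.20 FPKM in siNCOA4+DFO. The siNCOA4+DFO libraries were the 3 lowest of all 12. Limk1 fell by 0.61 on the log2 scale (95% interval -0.92 to -0.29, limma adjusted p = 0.0148), a call lost without siControl+DFO replicate 1 (-0.52, adjusted p = 0.0589) or replicate 2 (-0.59, adjusted p = 0.0521). Ssh2, which acts against Limk1 on codon 3, stood at 17.3, 18.3 and 18.7 FPKM in siControl+DFO and at 12.8, 12.2 and 13.3 FPKM in siNCOA4+DFO. It fell by 0.50 (95% interval -0.73 to -0.27, limma adjusted p = 0.00770). Under rescaling outside small RNA genes its call was close to the threshold (limma adjusted p = 0.0494). A kinase and a phosphatase of the same site were thus lower in the same libraries.

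The remaining 7 did not pass with DFO. Cfl1 stood at 387, 369 and 348 FPKM in siControl+DFO and at 297, 302 and 325 FPKM in siNCOA4+DFO, without overlap, again on the lower side (log2 -0.26, 95% interval -0.45 to -0.06, limma adjusted p = 0.0709). This call was gained without siControl replicate 1 (adjusted p = 0.0332), a library that enters only the estimate of spread. Wdr1 was at 43.8, 42.4 and 42.5 FPKM against 45.4, 48.5 and 51.2 FPKM (log2 0.17, 95% interval 0.03 to 0.31, limma adjusted p = 0.0938). It passed with quantile scaling (0.30, adjusted p = 0.0210) and rescaling outside small RNA genes (0.30, adjusted p = 0.0262), of which the latter put the median of all genes at 0.12 in this comparison.

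For Dstn the small difference seen without DFO was not found with it. It stood at 113, 105 and 99.8 FPKM in siControl+DFO and at 110, 98 and 99.4 FPKM in siNCOA4+DFO, a log2 difference of -0.05 (95% interval -0.22 to 0.13) whose sign turned under quantile scaling (0.12) and rescaling outside small RNA genes (0.08). Limk2 (0.05), Ssh1 (0.25), Ssh3 (0.28) and Pdxp (-0.14) had overlapping groups. The difference between the siRNA effects with and without DFO was tested for each relative, and 0 of 9 passed (limma, adjusted p below 0.05; 2.1% of all genes passed), with 1 at an unadjusted p below 0.05. That gene was Dstn, at -0.27 (limma adjusted p = 0.229). Limk1 (-0.36, limma adjusted p = 0.387) and Ssh2 (-0.26, limma adjusted p = 0.402) are therefore not shown to fall more with DFO than without.

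**Figure D2:**
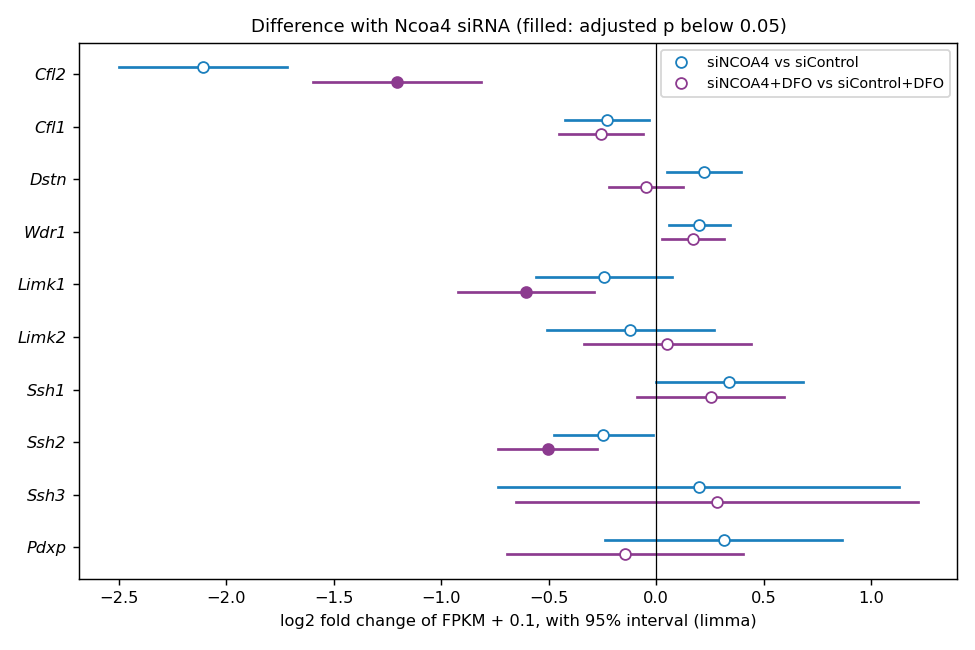
Log2 differences of FPKM + 0.1 with Ncoa4 siRNA for the 10 genes, with 95% intervals from limma (x axis), without DFO (blue) and with DFO (purple); filled points had an adjusted p below 0.05, and Cfl2 without DFO was not tested. Cfl2 lies far left of the 9 relatives, whose differences run from -0.61 to 0.34.

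Because FPKM is per length, the 3 family members can be summed as a pool of ADF/cofilin transcripts. Cfl2 made up 4.02% to 4.15% of the pool in siControl, 0.707% to 1.39% in siNCOA4, 5.25% to 5.37% in siControl+DFO and 2.58% to 2.93% in siNCOA4+DFO. The pool itself was 679 ± 60.7, 583 ± 25.6, 500 ± 28.2 and 422 ± 11.97 FPKM (mean ± SD, n = 3) in the same order of groups. In siNCOA4 against siControl the difference of means was -21.1 FPKM for Cfl2, -86.8 FPKM for Cfl1 and 11.7 FPKM for Dstn. With DFO the siRNA pair differed by -15.1 FPKM for Cfl2, -59.8 FPKM for Cfl1 and -3.42 FPKM for Dstn. The gain of Dstn in FPKM was thus smaller than the loss of Cfl2 in the first pair and absent in the second. In the first pair that loss is the value that chose the set, so the sums are descriptions. The mean of the pool was lower with the siRNA in both pairs. Without DFO the libraries ran from 612.5 to 731.7 FPKM in siControl and from 560.4 to 610.5 FPKM in siNCOA4. The largest part of each difference was that of Cfl1, which did not pass in either pair. The pool means of siControl and siNCOA4 came to 662 and 598 FPKM when rescaled outside small RNA genes, and those of siControl+DFO and siNCOA4+DFO to 478 and 440 FPKM, a narrower gap in each pair.

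**Figure D3:**
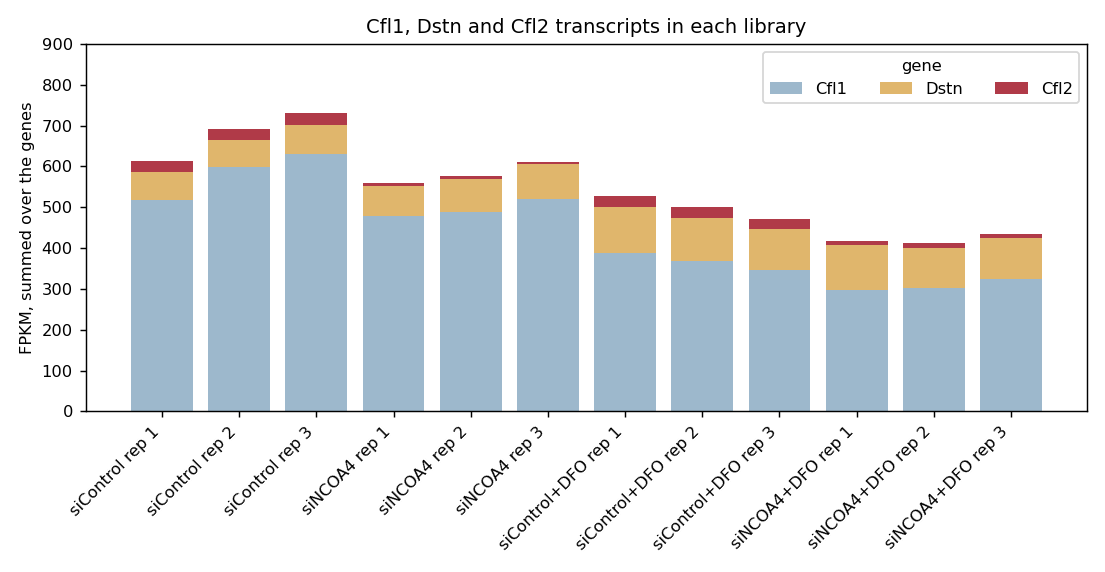
Summed FPKM of Cfl1 (blue), Dstn (yellow) and Cfl2 (red) in each of the 12 libraries, as stacked bars starting at 0. The bars shrink from 613 to 732 FPKM in siControl to 412 to 435 FPKM in siNCOA4+DFO, and the red part narrows wherever Ncoa4 siRNA was given.

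With DFO alone, Pdxp and Dstn were higher and Cfl1 and Wdr1 lower. In siControl+DFO against siControl, 2 of the 9 relatives rose and 2 fell (limma, adjusted p below 0.05) where 53.4% of all genes passed (27.7% higher and 25.7% lower), so the share is near the background. This comparison uses the same siControl libraries as the siRNA comparison. Pdxp rose from 1.41, 1.40 and 1.36 FPKM to 3.99, 5.79 and 5.09 FPKM, the largest difference of any relative (log2 1.75, 95% interval 1.20 to 2.30, limma adjusted p = 9.91e-05). Dstn rose by 0.61 (95% interval 0.44 to 0.79, limma adjusted p = 4.3e-05). Cfl1 fell by 0.66 (95% interval -0.85 to -0.46, limma adjusted p = 6.08e-05) and Wdr1 fell by 0.56 (95% interval -0.70 to -0.42, limma adjusted p = 1.79e-05). Groups did not overlap for these 4 of the 9 relatives, where 60.7% of all genes had such groups. Limk1 (0.01), Limk2 (0.29), Ssh1 (-0.22), Ssh2 (0.12) and Ssh3 (0.38) did not pass.

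The same 4 genes passed in siNCOA4+DFO against siNCOA4, where 42.7% of all genes passed (23.1% higher and 19.6% lower). Pdxp rose by 1.29 (limma adjusted p = 0.00141) and Dstn by 0.34 (limma adjusted p = 0.00431), while Cfl1 fell by 0.69 (limma adjusted p = 7.21e-05) and Wdr1 fell by 0.59 (limma adjusted p = 2.14e-05). Opposite shifts of Cfl1 and Dstn changed the makeup of the pool. The ratio of Cfl1 to Dstn in FPKM was 8.42 ± 0.912 in siControl, 6.13 ± 0.235 in siNCOA4, 3.48 ± 0.0551 in siControl+DFO and 3.02 ± 0.287 in siNCOA4+DFO (mean ± SD, n = 3). Dstn took 10.3% of the pool in siControl and 24.3% in siNCOA4+DFO.

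**Figure D4:**
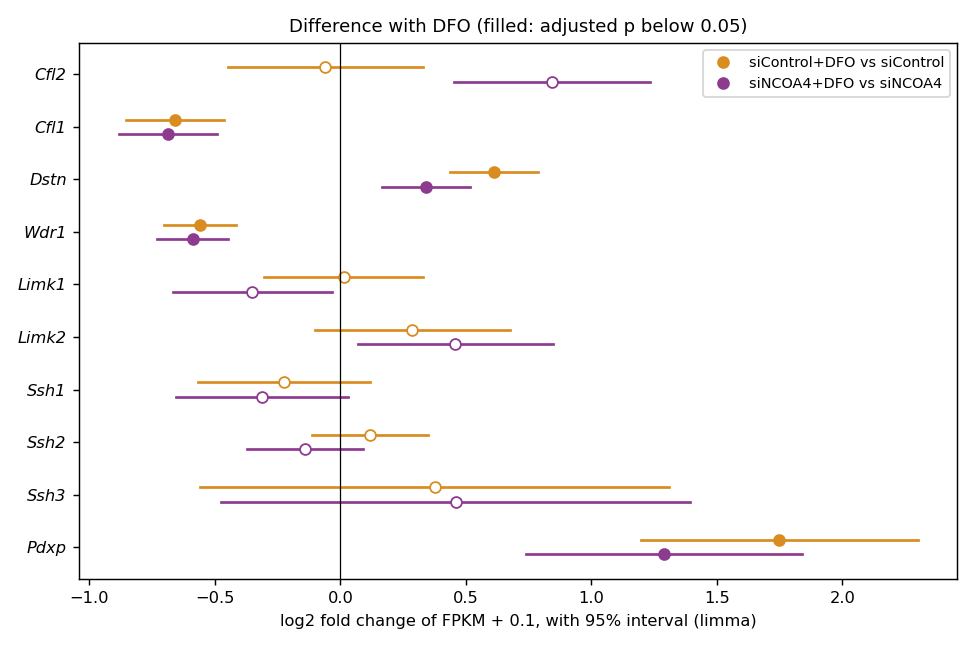
Log2 differences of FPKM + 0.1 with DFO for the 10 genes, with 95% intervals from limma (x axis), in cells with control siRNA (orange) and with Ncoa4 siRNA (purple); filled points had an adjusted p below 0.05, and Cfl2 was not tested. Pdxp and Dstn lie to the right and Cfl1 and Wdr1 to the left in both.

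When both treatments were set against neither (siNCOA4+DFO against siControl), 2 of the 9 relatives were higher and 4 lower, where 48.8% of all genes passed (25.4% higher and 23.4% lower). Pdxp rose by 1.60 (limma adjusted p = 2.2e-04) and Dstn by 0.56 (limma adjusted p = 9.52e-05). Cfl1 fell by 0.91 (limma adjusted p = 5.43e-06), Limk1 by 0.59 (limma adjusted p = 0.00477), Ssh2 by 0.39 (limma adjusted p = 0.00926) and Wdr1 by 0.39 (limma adjusted p = 3.78e-04). Ssh2 did not pass after rescaling outside small RNA genes (-0.29, adjusted p = 0.0630). Cfl1 at 297 to 325 FPKM was then at its lowest of the 4 groups, while Cfl2 lay at -1.26 from siControl, a description. Where a fold change above 2 was also required, 0 of 9 relatives passed in siNCOA4 against siControl (1.78% of all genes did), and Cfl2 alone remained in siNCOA4+DFO against siControl+DFO (2.09%). Pdxp alone of the relatives remained in siControl+DFO against siControl (18.8%), siNCOA4+DFO against siNCOA4 (11.4%) and siNCOA4+DFO against siControl (15.2%).

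The wider pathway was taken as 6 fixed lists, and in each the counts for the siRNA are given without and then with DFO (limma, adjusted p below 0.05). The shares of all genes that passed, to be read beside each count, were 11.7% without DFO (4.52% higher and 7.21% lower) and 16.5% with it (6.22% higher and 10.2% lower). Of the 6 other ADF-homology proteins tested, which share the actin-binding fold of cofilin, 0 of 6 passed in either, while 2 of 6 without DFO and 0 of 6 with it had an unadjusted p below 0.05. Twf1, a twinfilin that binds actin monomers, differed by 0.14 and 0.10, Dbnl by -0.21 and 0.10, and Gmfb by -0.00 and 0.07 on the log2 scale. With DFO, Twf1 passed under quantile scaling (0.23, adjusted p = 0.0277) and rescaling outside small RNA genes (0.23, adjusted p = 0.0326). Among 19 upstream kinases and GTPases, 2 rose and 3 fell without DFO, and 1 rose and 2 fell with it, which is 26.3% and 15.8% of the list. Rac1, a GTPase which activates PAK kinases, fell by 0.25 (limma adjusted p = 0.0322) and by 0.23 (limma adjusted p = 0.0403), calls that were both lost under quantile scaling, rescaling, the replicate block and fits of the compared groups alone. Lats1 (0.32 without DFO, 0.07 with it) and Cdc42bpa (0.25 and 0.20) rose and Pak3 (-0.40 and 0.32) fell without DFO, names taken after their values were seen. The sign of Pak3 thus differed between the pairs, and with DFO it did not pass (limma adjusted p = 0.0786). Of the 19 upstream genes, 1 passed the test of the difference between the pairs, as higher, where 2.1% of all genes passed. Prkd1, a kinase that inhibits slingshot, passed only in the DFO pair (0.69, limma adjusted p = 0.0151; 0.18 without DFO), and its difference between the pairs did not pass (0.50, limma adjusted p = 0.279). The call of Prkd1 with DFO was lost in the fit of the compared groups alone (limma adjusted p = 0.051).

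Among 11 partners of cofilin in disassembly, 0 rose and 3 fell without DFO, and 0 rose and 2 fell with it, which is 27.3% and 18.2% of the list. Coro1c, a coronin that brings cofilin to filaments, fell by 0.52 (limma adjusted p = 0.00119) and by 0.37 (limma adjusted p = 0.00707), and Flii, a gelsolin-family protein, by 0.40 (limma adjusted p = 0.0109) and by 0.56 (limma adjusted p = 0.00137). The call of Coro1c with DFO was lost under rescaling outside small RNA genes (-0.25, adjusted p = 0.0662), and that of Flii without DFO in the fit of the compared groups alone (adjusted p = 0.0532). The third was Ppp3ca, the catalytic subunit of calcineurin, which activates slingshot. It went from 83.9 ± 3.24 to 36.6 ± 2.56 FPKM without DFO (n = 3, log2 -1.20, limma adjusted p = 1.56e-05) and from 30.7 ± 2.40 to 28.1 ± 3.27 FPKM with it (n = 3, log2 -0.13, limma adjusted p = 0.377). Its level in siControl+DFO was thus below that in siNCOA4.

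Of 11 actins and monomer binders, 0 rose and 4 fell without DFO, and 0 rose and 1 fell with it, which is 36.4% and 9.09% of the list. The 4 were Actg1, a cytoplasmic actin (-0.39, limma adjusted p = 0.0196), Pfn1, the main profilin (-0.30, limma adjusted p = 0.0229), the actin oxidase Mical2 (-0.43, limma adjusted p = 0.0153) and Mical3, named after its value was seen. Without DFO, Actg1 lost its call under quantile scaling (-0.27, adjusted p = 0.159) and rescaling (-0.32, adjusted p = 0.0600), as did Pfn1 (-0.12, adjusted p = 0.5, and -0.22, adjusted p = 0.0967). Pfn1 also lost its call in the fit of the compared groups alone (limma adjusted p = 0.0577). The 1 with DFO was Mical2 (-0.45, limma adjusted p = 0.00868). Of 29 genes of filament assembly, capping and stabilisation, 2 rose and 6 fell without DFO, and 3 rose and 7 fell with it, which is 27.6% and 34.5% of the list. Actr3, a core subunit of the Arp2/3 complex, fell by 0.40 (limma adjusted p = 0.00261) and by 0.56 (limma adjusted p = 3.87e-04). Among the tropomyosins, filament-coating proteins, Tpm3 rose by 0.54 (limma adjusted p = 2.62e-04) and by 0.24 (limma adjusted p = 0.0281), and Tpm2 fell by 0.74 with DFO (limma adjusted p = 9.37e-04; -0.18 without). The call of Tpm3 with DFO was lost in the fit of the compared groups alone (limma adjusted p = 0.0774) and under moderation without a trend (limma adjusted p = 0.0535). Of the other 2 tropomyosins, named after their values were seen, Tpm1 fell by 0.25 without DFO (limma adjusted p = 0.0459) and by 0.36 with it (limma adjusted p = 0.00729), and Tpm4 fell by 0.35 with it (limma adjusted p = 0.0160; -0.14 without). Actr2 was the second that rose without DFO, and Arpc1a and the formin gene Diaph2 (listed as Diap2) joined Tpm3 with it, all 3 named after their values were seen. The other genes that fell are also named after their values were seen. Vasp (-0.79 without DFO and -0.68 with it) and Wasl (-0.55 and -0.59) passed in both pairs. Wasf2 (-0.65) and Arpc4 (-0.36) passed only without DFO, and Daam1 (-0.52) only with it.

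The list named serum response factor targets also holds Srf itself, Mkl1 and Mkl2. Whether its genes follow the state of actin in these cells was not tested. Of its 16 tested genes, 1 rose and 5 fell without DFO, and 0 rose and 8 fell with it, which is 37.5% and 50% of the list. The count of 8 became 4 under rescaling outside small RNA genes, and 5 under quantile scaling and moderation without a trend. Its median log2 difference was -0.21 without DFO and -0.38 with it, the lowest of the 6 lists in both, beside 0.00478 and -0.00618 over all genes. Ctgf, a matricellular growth factor gene, fell by 1.01 (limma adjusted p = 2.57e-04) and by 0.85 (limma adjusted p = 9.9e-04), and Egr1, an immediate early transcription factor, by 0.82 (limma adjusted p = 0.0157) and by 1.41 (limma adjusted p = 7.37e-04). Besides these, Vcl, Mkl1 and Srf fell and Filip1l rose without DFO, named after their values were seen. Cyr61, a relative of Ctgf, fell by 1.10 with DFO (limma adjusted p = 9.9e-04) and not without (0.29, limma adjusted p = 0.253). Several of these calls rest on small differences. When each of the 12 libraries was left out in turn, the calls without DFO passed 8 times for Rac1, 7 for Pfn1, 8 for Actg1, 10 for Mical2 and 9 for Egr1, and the calls with DFO 2 times for Rac1, 11 for Prkd1 and 8 for Tpm3. Leaving out single libraries left 0 to 6 upstream genes, 0 to 4 actins and monomer binders and 2 to 7 serum response factor targets past the threshold without DFO, and 5 to 8 serum response factor targets with it.

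**Figure D5:**
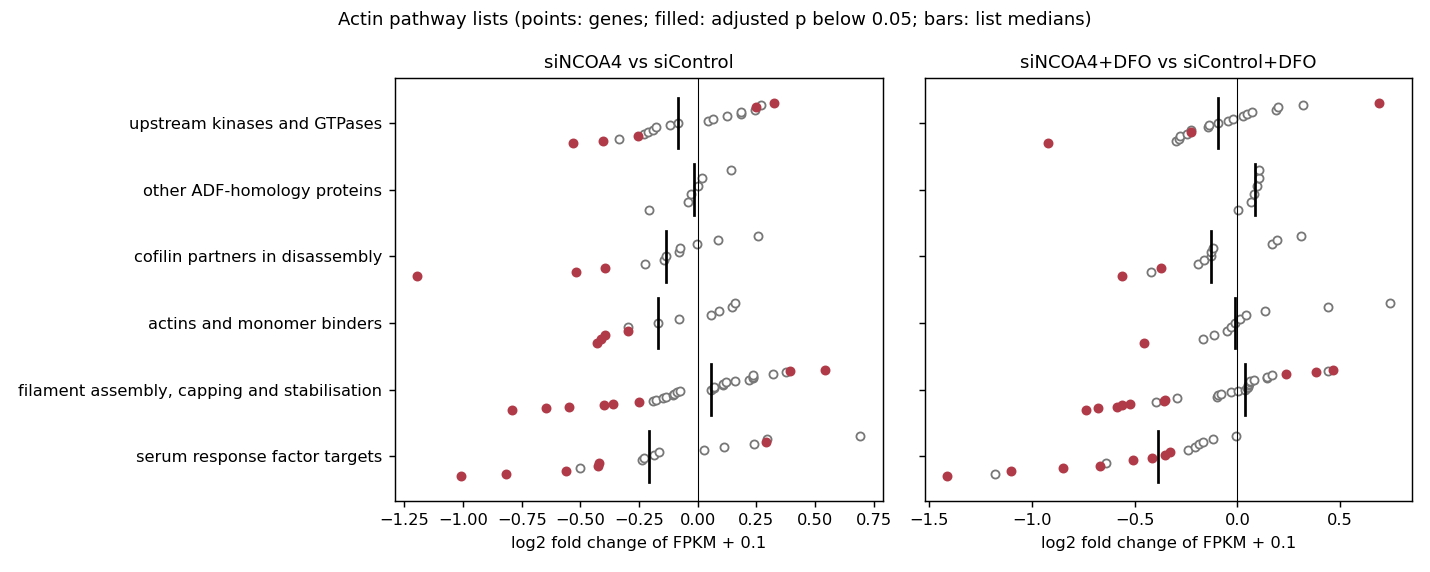
Log2 differences of FPKM + 0.1 with Ncoa4 siRNA (x axes) for each tested gene of the 6 lists, without DFO (left) and with DFO (right); red points had an adjusted p below 0.05 and bars are list medians. Most points lie between -0.5 and 0.5, and the medians of the serum response factor targets lie furthest left, at -0.21 and -0.38.

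Under DFO alone the lists moved more widely, as did all genes. Of the upstream genes 6 rose and 7 fell, of the other ADF-homology proteins 0 rose and 3 fell (Twf1, Twf2 and Dbnl), and of the cofilin partners 1 rose and 8 fell (limma, adjusted p below 0.05). Of the actins and monomer binders 1 rose and 6 fell, of the assembly genes 6 rose and 10 fell, and of the serum response factor targets 5 rose and 4 fell. The share of all genes that passed here was 53.4% (27.7% higher and 25.7% lower), and 3 of 6, 16 of 29 and 9 of 16 lie near it. Egr1 rose by 3.89 (limma adjusted p = 1.35e-08) and Cyr61 by 3.65 (limma adjusted p = 5.22e-09) in siControl+DFO, so their siRNA effects with DFO were measured from raised levels.

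The genes whose pattern was most like that of Cfl2 were found by the root mean square difference of log2 values from the siControl mean over the 12 libraries. They were Axl (0.40), a receptor tyrosine kinase, S100a11 (0.45), Commd10 (0.47), Adamts1 (0.47), a secreted metalloprotease, and Akr1a1 (0.48), an aldehyde reductase. Axl had means of 75.3, 28.0, 64.9 and 31.4 FPKM in siControl, siNCOA4, siControl+DFO and siNCOA4+DFO. Adamts1, at 46.9, 15.6, 56.0 and 29.0 FPKM, also lay higher in siNCOA4+DFO than in siNCOA4, as Cfl2 did. None of the 9 relatives was among these 5, which says little about them, since only 5 of 11924 genes were taken. The measure also includes the libraries that chose Cfl2.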

How the data were processed

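HT22 libraries were made with a stranded low-input total RNA kit, and the labels of the 12 samples gave group and replicate number. The authors deposited FPKM per gene for each library. The submitters' processing notes name Trimmomatic 0.33, FastQC, HISAT2 2.1.0, featureCounts, edgeR and mm10 without giving their roles. Of 24347 entries, 4 that shared a name were left out. FPKM are not counts, so no count test was run. Log2(FPKM + 0.1) was modelled as group means over all 12 libraries (limma 3.58.1 under R 4.3.3, mean-variance trend). The filter kept 11924 genes that reached 0.5 FPKM in 3 or more libraries. Benjamini-Hochberg adjustment ran over these genes, separately for each comparison, and a change was called at an adjusted p below 0.05. Since the pseudocount was 0.1, changes of low genes are understated. The script was tested on simulated data. Cfl2 was tested only in siNCOA4+DFO against siControl+DFO and was left out of the counts of passing genes elsewhere. Gene positions and coding sequences came from GENCODE M21 on GRCm38.

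The 10 members, the lists and the tests were chosen with earlier results of these data known. Named genes were Ncoa4, the 10 members, up to 3 genes of each list with the smallest adjusted p in either siRNA comparison, and the 5 genes nearest to Cfl2. The result of 1 gene that this rule names is not reported here. Alternatives covered the pseudocount (1 or 0.01), the filter, scaling, a replicate block, fits of the compared groups alone, other moderation, a fold threshold of 2 and leaving out each library. Those for the summed pool and the lists were added after the data were seen. P-values measure the spread between replicates labelled biological, and read totals per library are unknown, so no counting interval was computed.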

Additional observations from a re-analysis of the deposited data

Results flagged for a closer look

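Only the relatives and the genes named by rule were looked through. Ppp3ca was picked out because its siRNA effect with DFO minus that without differed from 0, by 1.07 on the log2 scale (limma, adjusted p = 0.00375). It fell in 3 of 3 siNCOA4 libraries against siControl (-1.20) and differed by -0.13 with DFO.

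Cyr61 was picked out by the same test, at -1.39 (limma, adjusted p = 0.0105). It differed by 0.29 without DFO and fell by 1.10 with DFO, and the groups did not overlap in either pair.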

How the results depend on the processing

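Of 1233 log2 values of the 10 genes under the alternatives, 1199 kept their direction and side of the threshold, 3 lost a call, 18 gained one and 13 changed sign. These counts include Cfl2 in every comparison, also in the one that chose the set, so they are no support for that fall. Cfl2 in siNCOA4+DFO against siControl+DFO ran from -1.25 to -1.08 and passed throughout. The number of relatives past the threshold in siNCOA4 against siControl, 0 as reported, became 1 with quantile scaling, 2 with rescaling outside small RNA genes and 0 to 1 without single libraries. Requiring a fold change above 2 as well left 1 gene each in siNCOA4+DFO against siControl+DFO, siControl+DFO against siControl, siNCOA4+DFO against siNCOA4 and siNCOA4+DFO against siControl. Signs turned for Dstn in siNCOA4+DFO against siControl+DFO with quantile scaling (0.12) and rescaling (0.077), for Limk1 in siControl+DFO against siControl with rescaling (-0.016), and for Gmfb in siNCOA4 against siControl with median-of-ratios scaling (0.0053), quantile scaling (0.035) and rescaling (0.072). Without single libraries, the ranges that crossed 0 were, in siNCOA4 against siControl, Limk2 -0.28 to 0.061, Ssh3 -0.11 to 0.56 and Gmfb -0.051 to 0.047; in siNCOA4+DFO against siControl+DFO, Dstn -0.099 to 0.0022, Limk2 -0.11 to 0.16, Pdxp -0.34 to 0.076, Gmfb -0.052 to 0.16 and Actg1 -0.021 to 0.14; in siControl+DFO against siControl, Limk1 -0.073 to 0.12; and in siNCOA4+DFO against siControl, Ssh1 -0.085 to 0.15. The causes were not tested. Same-numbered libraries showed no shared deviation (correlations -0.206 to 0.113 over 18 pairs, and -0.226 to 0.296 over 36 pairs of unlike number). Whether same-numbered samples were handled together cannot be read from this. With a replicate block the counts of members past the threshold were 0, 3, 4, 4, 6 and 0 in the comparisons as ordered above and the interaction. Ssh3 drops out at a filter of 2 FPKM. Only relative depth is known, and its part in these values was not tested.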
